A study of Danio rerio with 24 samples.

Results

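Late-onset zygotic genes are genes whose transcripts are nearly missing while the zebrafish embryo still runs on the egg's supply and as its own transcription begins, and that reach a clear level only in the late blastula. Here 92 such genes were selected from 25431 protein-coding genes. They were chosen by their measured levels in vehicle embryos, in FPKM, the deposited unit (fragments per kilobase of a gene after scaling for library size). The mean was under 0.5 FPKM in the 4 libraries of 2 hours post fertilization (hpf), under 1 FPKM in those of 3.5 hpf, and 3 FPKM or more over replicates 1 and 2 at 4.5 hpf. These conditions left 142 genes. Genes on chromosome 4, keratin and claudin genes, histone genes and genes with the domains of the large transcription factor families were then left out, which gave the 92.

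All embryos were wild-type zebrafish, sampled whole, and all were kept in 0.1% dimethyl sulfoxide (DMSO). They received either 0 or 40 µM tetrabromobisphenol A (TBBPA), a brominated flame retardant, starting at 0.75 hpf, and were collected for RNA sequencing at 2, 3.5 or 4.5 hpf, with 4 libraries in each of the 6 groups. The series title places the exposure in a study of histone acetylation and zygotic transcription. Whether the replicates of a group came from separate spawnings is not stated, so p-values measure only the spread between these libraries.

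In a fish embryo the egg supplies the first transcripts, and the embryo's own genome is switched on around the midblastula transition. Some genes are transcribed at once, driven by factors that the egg deposited. Others follow later, many of them needing proteins made by the first genes, and they include secreted signals, their receptors and the first genes of distinct cell layers such as the enveloping layer, a thin sheet that covers the blastula.

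The exclusions did not remove every gene of the kinds they aimed at. The rule left in 3 genes for well known DNA-binding transcription factors, namely gata5, gata6 and the grainyhead-like gene grhl1. Also left in were the zinc finger gene znf1154, msantd1, described by a Myb/SANT-like DNA-binding domain, and si:dkey-56d12.4, with a THAP domain. The rule kept CLDN23 too, a claudin whose symbol is written in capitals. The 92 genes lay on 22 chromosomes, and 29 of them had only a clone or locus name. A domain was annotated for 38 members. The most frequent domain was that of rhodopsin-type G protein-coupled receptors, found in lpar6a, rxfp3.3b and s1pr5a. Only 3 pairs of members lay within 200 kb of each other, and the closest pair, stmn2a and nradd on chromosome 16, was 135709 bases apart with 4 other genes between. The median member spanned 10694 bases of the genome, against 16142 for all tested genes and 5763 for the 118 first-wave genes described next.

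The first-wave genes served as a comparison set. They passed the same exclusions and the same limit at 2 hpf, and already had a mean of at least 3 FPKM in the 4 vehicle libraries of 3.5 hpf. No level at 4.5 hpf was required of them, unlike the members. Just inside the limit of 3 FPKM at 4.5 hpf lay ercc6, wee1 and cart4 at 3.003, 3.02 and 3.03 FPKM, and just outside lay ccdc103, map3k14a and BX681416.2 at 2.99, 2.97 and 2.94 FPKM. At the limit of 1 FPKM at 3.5 hpf the nearest members were si:ch211-261n11.5, CR381647.3 and arrdc3a at 0.969, 0.947 and 0.921 FPKM. The nearest genes left out were si:dkey-118j18.2, fkbp7 and slc43a2b at 1.01, 1.02 and 1.06 FPKM. At the limit of 0.5 FPKM at 2 hpf, cart4, gata6 and ercc6 lay inside at 0.460, 0.457 and 0.455 FPKM, and notum1a, cers2b and polr3glb lay outside at 0.515, 0.551 and 0.558 FPKM.

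The number of reads assigned to genes ran from 10.6 to 20.02 M (M, mega) per library. At 4.5 hpf it ran from 11.04 to 20.02 M in DMSO and from 14.3 to 17.7 M in TBBPA. The median member had 199 reads per library in DMSO replicates 3 and 4 and 25.6 in TBBPA at 4.5 hpf, so ratios for the lowest members rest on few reads. The library protocol names both a strand-keeping and a strand-blind version, and 35 members overlap another annotated gene, so part of the reads of those pairs may be shared.

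In vehicle embryos the whole set came on between 3.5 and 4.5 hpf, as the rule required. The FPKM of the 92 members summed to between 8.05 and 8.63 per DMSO library at 2 hpf and to between 41.5 and 50.3 at 3.5 hpf. At 4.5 hpf the sums in DMSO replicates 1 to 4 were 608, 594, 698 and 878 FPKM. Replicates 3 and 4, which did not enter the rule, were thus no lower than the replicates that did, and replicate 4 held the highest DMSO value of 70 of the 92 members. The members with the highest levels in replicates 3 and 4 were cdk5r1a, the activator of the kinase Cdk5, and ca9, a carbonic anhydrase of the cell surface.

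**Figure D1:**
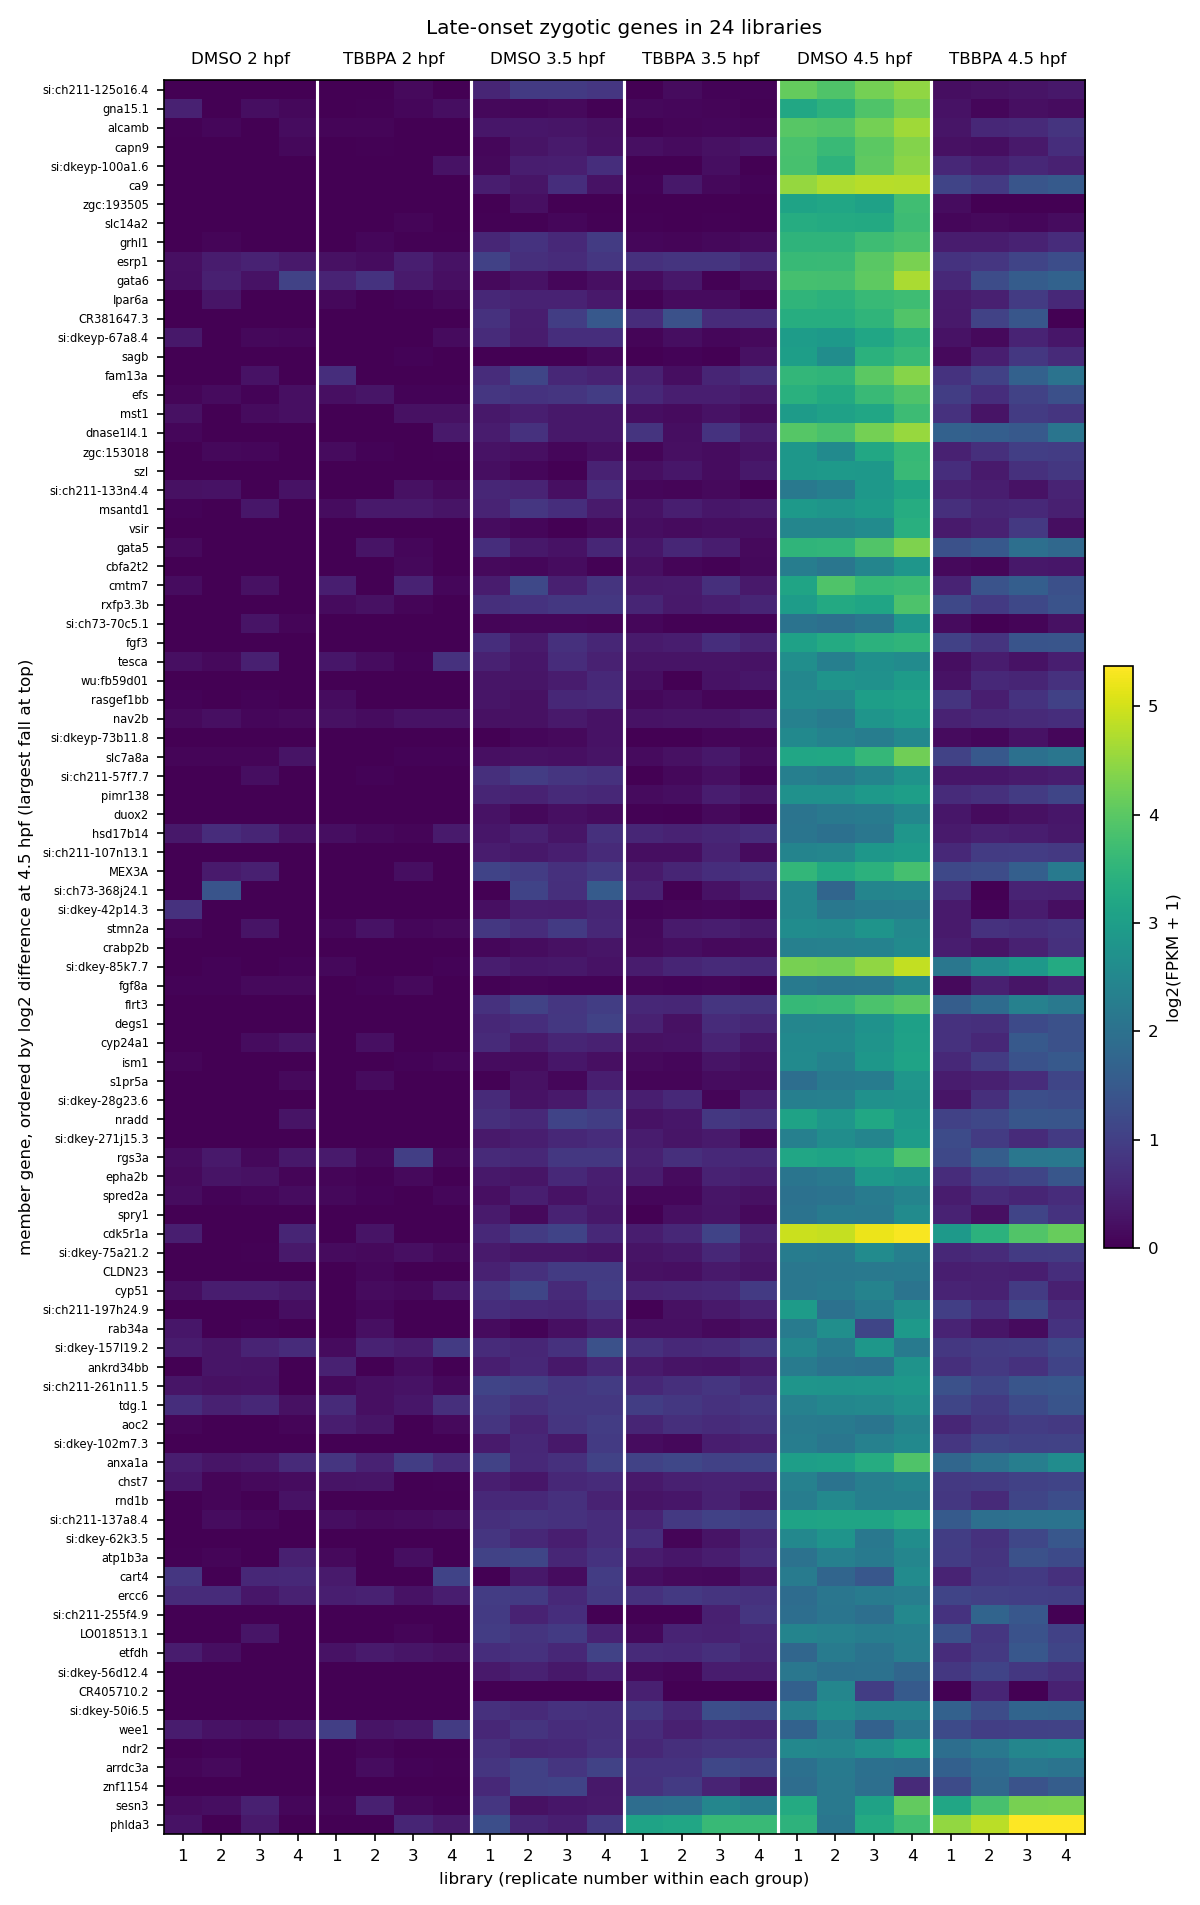
Level of each of the 92 late-onset members, as log2(FPKM+1), in the 24 libraries, with members ordered by their difference between TBBPA and DMSO at 4.5 hpf. The DMSO libraries of 4.5 hpf stand out as 1 bright block, while the TBBPA libraries of 4.5 hpf are dark for most members, with the exception of phlda3, sesn3, cdk5r1a and a few others.

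TBBPA embryos of 4.5 hpf held far less of these transcripts. The 92 members summed to 104, 129, 181 and 191 FPKM in TBBPA replicates 1 to 4, or 151 ± 41.7 (SD, n = 4). All 4 sums lay below those of DMSO replicates 3 and 4, and the levels of the TBBPA libraries were not alike: replicate 4 was the highest for 51 members and replicate 1 the lowest for 48. Of the members, 26 in replicates 1 and 2 and 45 in replicates 3 and 4 reached 1 FPKM, against 91 in each of DMSO replicates 3 and 4. In whole embryos, fewer cells of a type and less RNA per cell cannot be told apart.

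**Figure D2:**
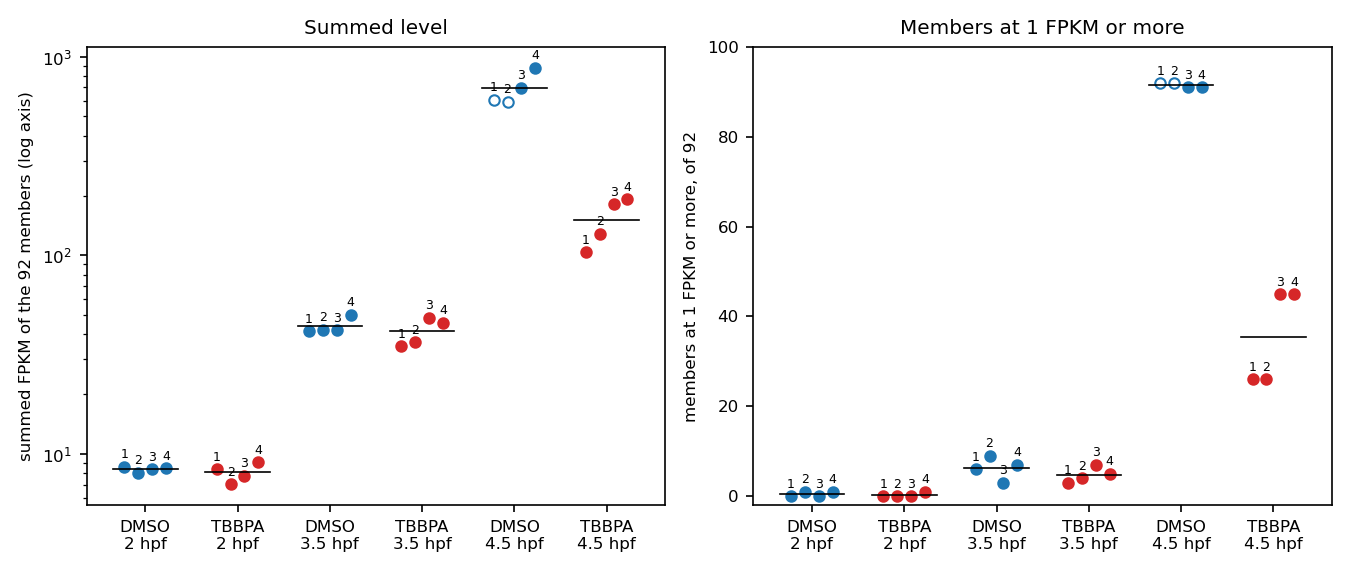
Summed FPKM of the 92 members on a log axis, and number of members at 1 FPKM or more, for each library by treatment and time, with replicate numbers beside the points and lines at the group means. At 4.5 hpf the 4 TBBPA libraries sum to between 104 and 191 FPKM and DMSO replicates 3 and 4, which did not enter the rule, to 698 and 878 FPKM.

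Against DMSO replicates 3 and 4 alone, 88 of the 92 members were lower in TBBPA at 4.5 hpf, 1 was higher and 3 did not pass the test (limma on log2(FPKM+1), Benjamini-Hochberg adjusted p under 0.05 over 12742 genes). Of all tested genes, 32.6% were called lower, 30.6% higher and 63.2% in either direction in the same test. Every member entered the test only through DMSO at 4.5 hpf, where the rule required it to be high, and nothing was required of TBBPA. Lower calls are thus favoured among the members over the share of all tested genes. Their count, median and share of DMSO describe the chosen set and are no independent support. For the same 88 members every TBBPA library lay below both DMSO libraries, which held for 37.3% of all tested genes. The median log2 difference was −1.98 over the members, −1.32 over the first-wave genes and −0.02 over all tested genes. Only the members had to be high in DMSO at 4.5 hpf, so these medians do not compare like with like. Of the 118 first-wave genes, 84 were lower, 13 higher and 21 did not pass. With a pseudocount of 0.1 in place of 1 the members' median was −2.85.

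As a share of the mean of DMSO replicates 3 and 4, the median member stood at 12.51% in TBBPA, with the middle of the set between 6.42% and 22.9%. Replicates 3 and 4 had a higher mean than replicates 1 and 2 in DMSO for 79 of the 92 members, against 48.5% of all tested genes. Against all 4 DMSO libraries the median member stood at 14%. The median first-wave gene stood at 38.1% and the median tested gene at 98.5%. Among the members, 16 stood under 5%, 19 between 5% and 10%, 40 between 10% and 25%, and 12 between 25% and 50%. The other 5 were ndr2, arrdc3a, znf1154, sesn3 and phlda3. The TBBPA mean stayed under 1 FPKM for 53 members and was at least 3 FPKM for 7, whereas the mean of DMSO replicates 3 and 4 was at least 3 FPKM for 87.

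**Figure D3:**
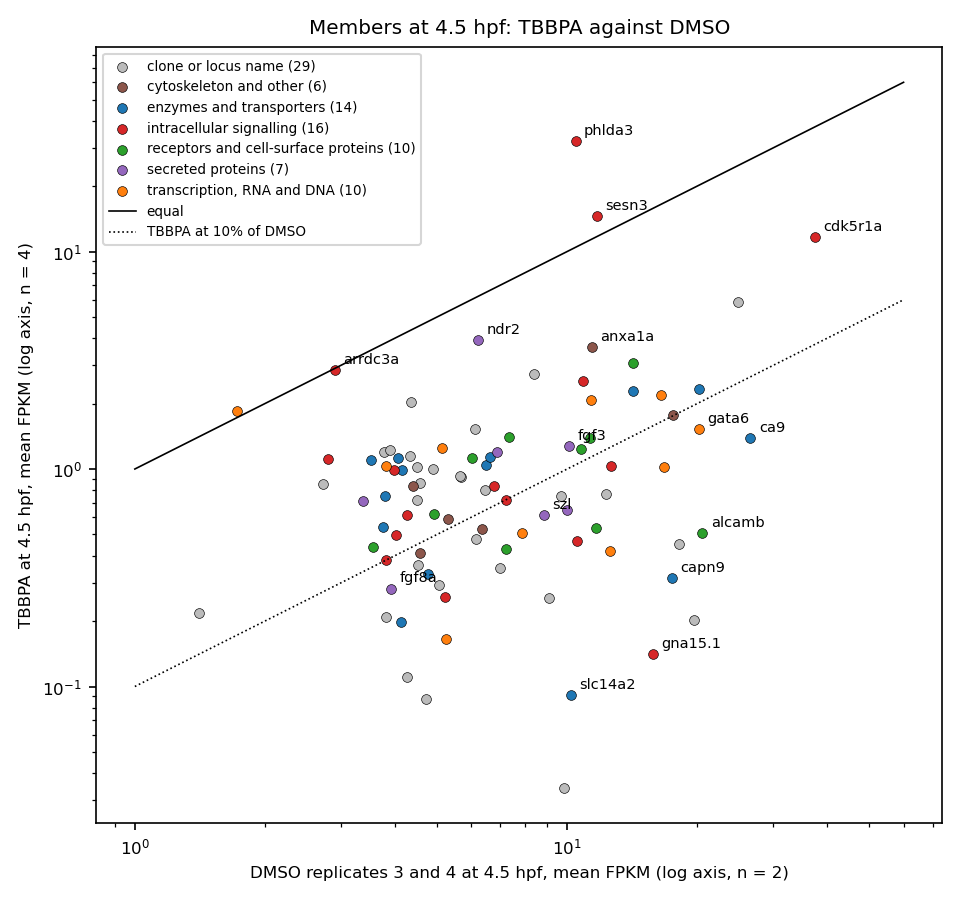
Mean FPKM of each member at 4.5 hpf in DMSO replicates 3 and 4 (horizontal, log axis) and in the 4 TBBPA libraries (vertical, log axis), coloured by role, with lines at equal level and at 10% of the DMSO level. Of the 92 points, 35 lie under the 10% line, and phlda3, sesn3 and znf1154 lie above the line of equal level, of which only phlda3 passed the test.

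Secreted proteins made up 7 members, and all 7 were lower in TBBPA. Fgf3 and Fgf8a are fibroblast growth factors that pattern the dorsal margin and later the brain. The level of fgf3 was 9.90 and 10.3 FPKM in DMSO replicates 3 and 4, and 1.06, 0.752, 1.62 and 1.67 FPKM in TBBPA replicates 1 to 4. The level of fgf8a was 3.40 and 4.44 FPKM in DMSO and 0.0968, 0.392, 0.232 and 0.405 FPKM in TBBPA. Neither gene's groups overlapped, with log2 differences of −2.31 ± 0.18 (SE, adjusted p = 2.84e-05, limma) for fgf3 and −1.94 ± 0.15 (adjusted p = 2.57e-05, limma) for fgf8a.

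Sizzled, encoded by szl, is a secreted protein that protects the BMP antagonist Chordin from cleavage in zebrafish. It stood at 6.24 and 11.4 FPKM in DMSO and at 0.626, 0.312, 0.675 and 0.838 FPKM in TBBPA, a log2 difference of −2.57 ± 0.23 (adjusted p = 4.72e-05, limma). The neuropeptide gene cart4 was the lowest of the 7 in DMSO, at 1.75 and 4.99 FPKM, with 0.447, 0.836, 0.892 and 0.665 FPKM in TBBPA. Its log2 difference of −1.25 (adjusted p = 0.00568, limma) was −0.69 when DMSO replicate 4 was left out. The matrix-associated protein gene ism1 stood at 17.4% of DMSO, and mst1, whose mammalian counterpart is a growth factor of the plasminogen family, at 6.47%.

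The Nodal ligand gene ndr2, which acts in mesendoderm formation, was the least reduced member that passed the test. It stood at 5.49 and 6.96 FPKM in DMSO and at 2.85, 3.41, 4.50 and 4.87 FPKM in TBBPA. The groups did not overlap, but the highest TBBPA library came close to the lower DMSO library, and the log2 difference was −0.57 ± 0.19 (adjusted p = 0.0281, limma). That call was lost without DMSO replicate 4 (−0.42) or TBBPA replicate 2 (−0.53), with TPM (−0.42) or total-count scaling (−0.44), with no filter on low genes (−0.57) and with a replicate block (−0.34).

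Receptors and other cell-surface proteins made up 10 members, all lower in TBBPA, at 2.47% to 21.7% of DMSO. The largest difference was that of alcamb, an immunoglobulin-type adhesion molecule, at 17.9 and 23.2 FPKM in DMSO and 0.229, 0.505, 0.548 and 0.746 FPKM in TBBPA (log2 difference −3.84 ± 0.17, adjusted p = 5.43e-06, limma). The lysophosphatidic acid receptor gene lpar6a stood at 11.3 and 12 FPKM in DMSO and 0.309, 0.385, 0.908 and 0.533 FPKM in TBBPA. The membrane protein gene flrt3, which acts with FGF receptors in frog embryos, kept more, with 13.4 and 15.01 FPKM in DMSO and 1.99, 2.69, 4.16 and 3.52 FPKM in TBBPA. In none of these 3 genes did the groups overlap, and TBBPA replicates 1 and 2 were the lower TBBPA libraries in all 3. An opposite-strand gene that overlaps flrt3, macrod2, averaged 25.9 FPKM in DMSO replicates 3 and 4 and 21.4 FPKM in TBBPA. The sphingosine-1-phosphate receptor gene s1pr5a, the relaxin-type receptor gene rxfp3.3b and the ephrin receptor gene epha2b stood at 12.6%, 11.6% and 18.5% of DMSO.

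Intracellular signalling proteins made up 16 members, the only group with a member that was higher. Here 13 were lower, 1 was higher and 2 did not pass. The G protein alpha subunit gene gna15.1 stood at 13.7 and 17.9 FPKM in DMSO and at 0.207, 0.0706, 0.158 and 0.126 FPKM in TBBPA. This was 0.888% of DMSO and the largest difference among members with an ordinary symbol (log2 difference −3.87 ± 0.13, adjusted p = 5.43e-06, limma). Its symbol is that of a numbered family copy, and whether reads were split between copies was not tested.

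Spry1 is a feedback inhibitor of FGF and other receptor tyrosine kinase signalling. Its gene stood at 3.49 and 5.02 FPKM in DMSO and at 0.432, 0.162, 1.14 and 0.723 FPKM in TBBPA (log2 difference −1.72 ± 0.24, adjusted p = 0.000513, limma). The related inhibitor gene spred2a stood at 12.3% of DMSO. The arrestin gene sagb, known from photoreceptors, and the calcium-binding protein gene tesca stood at 4.44% and 4.94%.

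The most abundant member, cdk5r1a, was also 1 of the less reduced members. It stood at 35.8 and 39.1 FPKM in DMSO and at 6.38, 9.86, 14.0 and 16.5 FPKM in TBBPA, a log2 difference of −1.68 ± 0.31 (adjusted p = 0.00189, limma). The kinase gene wee1, whose product holds back entry into mitosis, stood at 2.16 and 3.43 FPKM in DMSO and at 1.31, 0.997, 1.07 and 1.08 FPKM in TBBPA, or 39.8% of DMSO.

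Phlda3 is a pleckstrin-homology domain protein and Sesn3 a stress-response protein of the sestrin family, and the genes of both are p53 targets in mammals. The level of phlda3 was 8.73 and 12.2 FPKM in DMSO replicates 3 and 4 and 21.5, 27.2, 40.0 and 40.4 FPKM in TBBPA at 4.5 hpf. Every TBBPA library lay above both DMSO libraries (log2 difference 1.51 ± 0.26, adjusted p = 0.00137, limma). The level of sesn3 was 7.49 and 15.9 FPKM in DMSO and 8.02, 13.0, 18.3 and 18.7 FPKM in TBBPA. Its groups overlapped, and the log2 difference of 0.30 ± 0.37 did not pass (adjusted p = 0.498, limma) and ranged from −0.19 without DMSO replicate 3 to 0.80 without DMSO replicate 4. It was 0.73 against all 4 DMSO libraries, and 0.70 and past the threshold with a replicate block. The opposite-strand gene zgc:77118, which overlaps sesn3, averaged 42.9 FPKM in DMSO replicates 3 and 4 and 53.8 FPKM in TBBPA.

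These 2 genes also stood apart at 3.5 hpf, when TBBPA replicates 1 to 4 already held 7.63, 8.01, 11.4 and 11.5 FPKM of phlda3 and 2.80, 2.89, 4.54 and 3.8 FPKM of sesn3. The DMSO means at 3.5 hpf, which the rule kept under 1 FPKM, were 0.789 and 0.379 FPKM. Without phlda3 and sesn3 the members summed to between 74.4 and 132 FPKM in TBBPA at 4.5 hpf, and to 682 and 850 FPKM in DMSO replicates 3 and 4.

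The arrestin-domain gene arrdc3a stood at 2.97 and 2.84 FPKM in DMSO and at 2.14, 2.66, 3.46 and 3.16 FPKM in TBBPA. Its log2 difference was −0.03 ± 0.15 (adjusted p = 0.871, limma). Its sign turned to 0.10 when levels were scaled as TPM, to 0.08 under total-count scaling and to 0.06 when TBBPA replicate 1 was dropped.

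Enzymes and transporters made up 14 members, all lower in TBBPA. The calpain protease gene capn9 stood at 15.09 and 19.8 FPKM in DMSO and 0.183, 0.152, 0.292 and 0.634 FPKM in TBBPA (log2 difference −3.81 ± 0.18, adjusted p = 6.57e-06, limma). The carbonic anhydrase gene ca9 stood at 26.9 and 26.2 FPKM in DMSO and 1.15, 0.869, 1.67 and 1.88 FPKM in TBBPA. The urea transporter gene slc14a2 stood at 8.64 and 11.8 FPKM in DMSO and 0.0601, 0.100, 0.0720 and 0.134 FPKM in TBBPA. In all 3 genes the TBBPA libraries lay far below DMSO, at 1.80%, 5.24% and 0.898% of its mean.

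The amino acid transporter gene slc7a8a stood at 16.1% of DMSO and the DNase-like gene dnase1l4.1 at 11.5%. The oxidase gene duox2, whose product makes hydrogen peroxide, stood at 4.80%, the vitamin D hydroxylase gene cyp24a1 at 17.1% and the sphingolipid desaturase gene degs1 at 16.1%. The least reduced of the 14 was the electron transfer gene etfdh at 31.3%. The sterol demethylase gene cyp51 stood at 4.32 and 3.16 FPKM in DMSO and at 0.459, 0.416, 0.899 and 0.396 FPKM in TBBPA, where replicate 3 lay above the other 3.

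Genes acting on transcription, RNA or DNA made up 10 members, of which 9 were lower and 1 did not pass. The gene of the epithelial transcription factor grhl1 stood at 11.9 and 13.2 FPKM in DMSO and 0.319, 0.332, 0.424 and 0.613 FPKM in TBBPA (log2 difference −3.26 ± 0.12, adjusted p = 5.43e-06, limma). The endoderm and heart factor gene gata6 stood at 15.4 and 24.9 FPKM in DMSO and 0.546, 1.39, 1.96 and 2.23 FPKM in TBBPA. Its relative gata5 stood at 14.0 and 19.0 FPKM in DMSO and 1.52, 1.78, 2.89 and 2.51 FPKM in TBBPA. Both GATA genes were lower in every TBBPA library than in either DMSO library, with log2 differences of −3.08 ± 0.31 and −2.47 ± 0.20.

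The epithelial splicing regulator gene esrp1 and the co-repressor gene cbfa2t2 stood at 6.12% and 3.15% of DMSO. The DNA repair gene ercc6, 1 of the members nearest the limit of 3 FPKM, stood at 27.0%. The zinc finger gene znf1154 is annotated at only 244 bases. It stood at 2.89 and 0.561 FPKM in DMSO and 1.33, 2.49, 1.60 and 1.98 FPKM in TBBPA, and its log2 difference of 0.19 ± 0.34 did not pass (adjusted p = 0.642, limma). It was −0.47 without DMSO replicate 4, and 0.85 and past the threshold without DMSO replicate 3.

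The 6 remaining members with ordinary symbols act in the cytoskeleton or in other roles, and all were lower in TBBPA. The annexin gene anxa1a stood at 9.02 and 13.8 FPKM in DMSO and 2.41, 3.09, 3.91 and 5.12 FPKM in TBBPA. The retinoic acid-binding protein gene crabp2b stood at 9.04% of DMSO, fam13a at 10.1% and stmn2a, whose product binds tubulin, at 11.1%. The 29 members with clone or locus names were all lower too, at a median of 15.4% of DMSO. The largest log2 difference of all 92 was among them, −4.10 for si:ch211-125o16.4, at 18.1 and 21.2 FPKM in DMSO and 0.142, 0.177, 0.219 and 0.272 FPKM in TBBPA. The lowest TBBPA level was that of zgc:193505, listed at 0 in replicates 2 to 4 and at 0.136 FPKM in replicate 1. CR405710.2 and si:ch211-255f4.9 are each annotated at only 147 bases. They had 6 and 16 reads in DMSO replicates 3 and 4 together, so their lower calls rest on few reads.

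**Figure D4:**
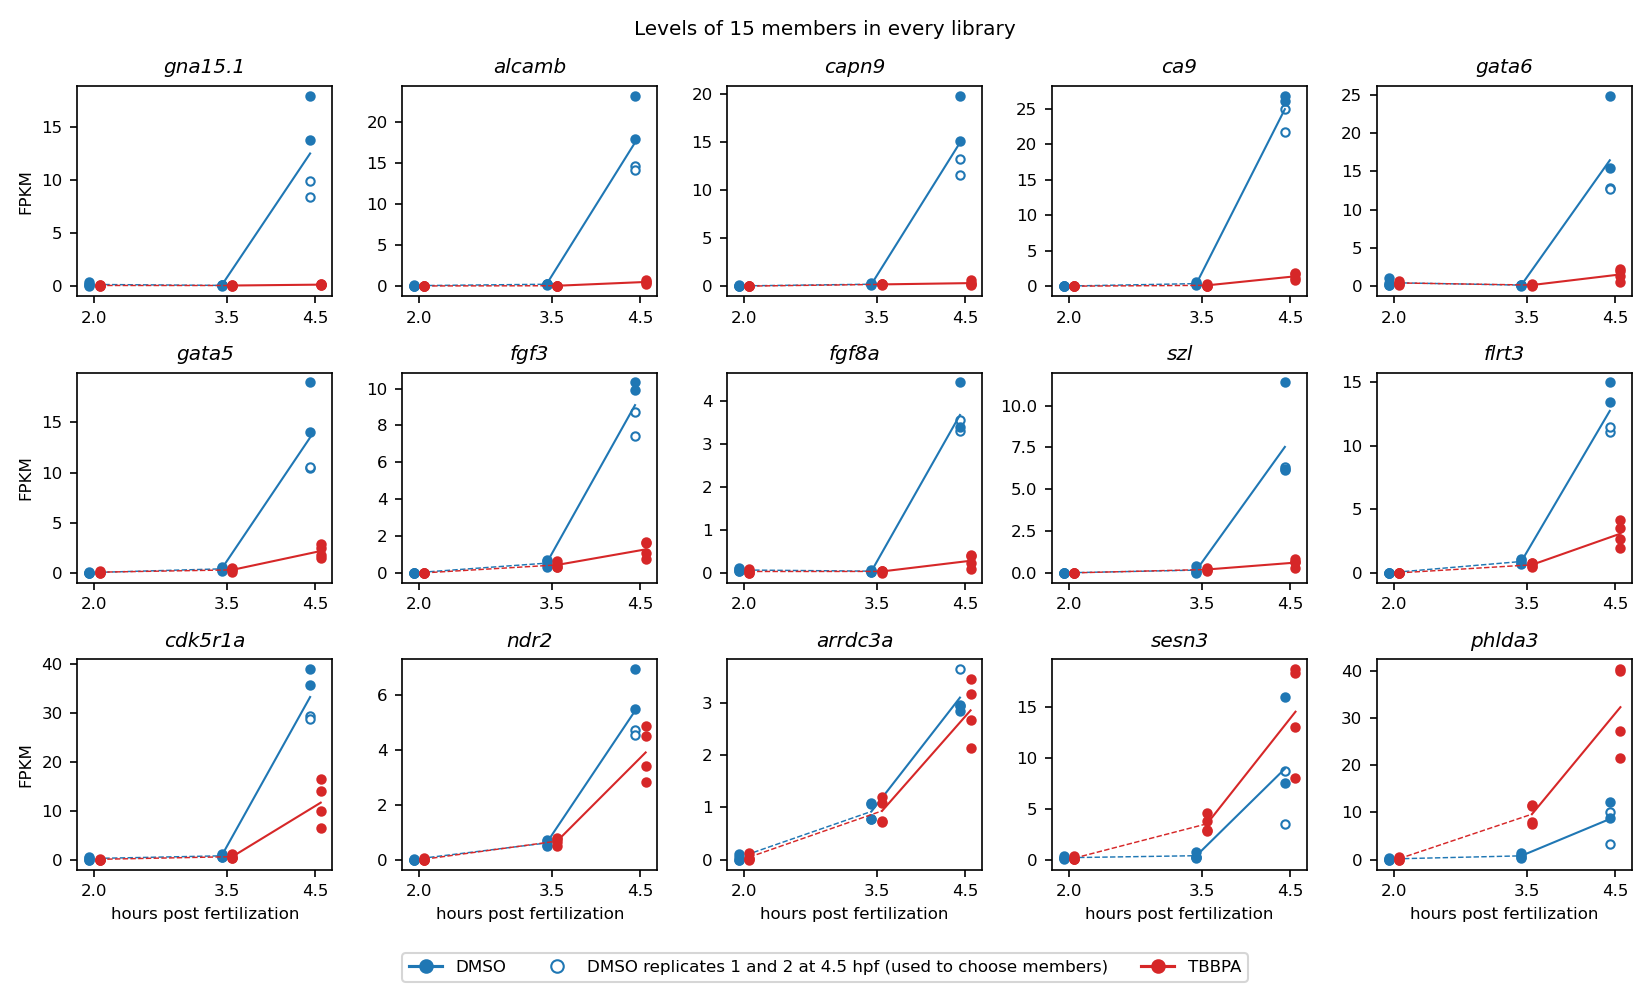
FPKM by time for 15 members, with a point for each library (open circles for DMSO replicates 1 and 2 of 4.5 hpf, which entered the rule), lines through the means of all 4 libraries of a group, and dashed lines between the 2 deposited tables. DMSO levels climb steeply after 3.5 hpf in each panel, and TBBPA levels stay low in fgf8a or gna15.1. TBBPA levels exceed DMSO at both later times only for phlda3 and sesn3 among these panels.

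TBBPA embryos also gained part of these transcripts over the last hour. Between 3.5 and 4.5 hpf within TBBPA embryos, 56 of the 92 members rose, 0 fell and 36 did not pass (limma, 4 libraries against 4), against 6.91% of all tested genes that rose and 7.93% that fell. Without regard to the test, the difference was positive for 89 members and negative for 3. It was positive for 86 of the 118 first-wave genes and for 6267 of the 12742 tested genes. The members were chosen because they came on over this same hour in DMSO, which favours rises among them over the share of all tested genes. Their counts describe the chosen set and are no independent support. At an unadjusted p under 0.05 limma gave 1 lower member, and voom on the recovered reads gave 0 after adjustment. The median log2 difference was 0.51 over the members, 0.41 over the first-wave genes (54 of 118 rose, 2 fell) and −0.00 over all tested genes. With a pseudocount of 0.1 the members' median was 1.43, and without TBBPA replicate 2 of 3.5 hpf the number that rose was 37. By the ratio of means, the median member was 3.51-fold higher at 4.5 than at 3.5 hpf in TBBPA, over the 91 members with a level above 0 at 3.5 hpf. In DMSO the same ratio, with replicates 3 and 4 at the later time, was 15.5-fold, where the rule kept the earlier level low.

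The rises in TBBPA differed widely between members. The steepest was that of cdk5r1a, from 0.342, 0.505, 1.12 and 0.406 FPKM at 3.5 hpf to between 6.38 and 16.5 FPKM (log2 difference 2.94 ± 0.26, adjusted p = 0.000949, limma). Next came si:dkey-85k7.7, known only by a locus name, with a log2 difference of 2.16, and then sesn3, phlda3 and ndr2 with 1.73, 1.62 and 1.53. The amino acid transporter gene slc7a8a, flrt3 and gata5 followed with 1.44, 1.30 and 1.28, and each of these rose. This order is that of log2(FPKM+1), a scale that understates low genes. By the ratio of means slc7a8a was 13.8-fold higher, sesn3 4.13-fold and phlda3 3.36-fold, against 3.51-fold for the median member.

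Several of the members furthest below DMSO showed no rise that passed the test. These included gna15.1 with a log2 difference of 0.11 ± 0.07 (adjusted p = 0.356, limma), capn9 with 0.14 ± 0.12 (adjusted p = 0.458, limma) and slc14a2 with 0.11 ± 0.07 (adjusted p = 0.301, limma). The 4 TBBPA values of slc14a2 at 4.5 hpf all lay above those at 3.5 hpf, by 8.81-fold between the means, and its rise passed with voom on the recovered reads (2.33) and with no filter. The level of capn9 was 0.170, 0.107, 0.188 and 0.260 FPKM at 3.5 hpf, which overlapped its later TBBPA values. By comparison alcamb, at 2.47% of DMSO, rose from between 0.0184 and 0.0724 FPKM to between 0.229 and 0.746 FPKM (log2 difference 0.51 ± 0.11, adjusted p = 0.0125, limma). A negative log2 difference was seen for hsd17b14, a steroid dehydrogenase gene, at −0.18, for CR381647.3 at −0.13 and for cyp51 at −0.04, and none of the 3 passed. The 4 TBBPA values of hsd17b14 at 4.5 hpf, 0.276 to 0.385 FPKM, all lay below those at 3.5 hpf, 0.436 to 0.614 FPKM. Among the members named by rank or list, the call of a rise was lost with 1 library left out for fam13a (0.67 to 0.97), szl (0.35 to 0.44), lpar6a (0.48 to 0.51), fgf3 (0.61 to 0.62) and grhl1 (0.37).

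By group, 6 of the 7 secreted proteins rose in TBBPA and 8 of the 10 receptors and cell-surface proteins. Of the 16 intracellular signalling proteins 11 rose, and 6 of the 14 enzymes and transporters. Of the 10 genes acting on transcription, RNA or DNA 5 rose, with 4 of the 6 remaining members and 16 of the 29 clone or locus names. The share that rose was 60.9% over all members and 6.91% over all tested genes. The groups were assigned after values were seen, and differences between them were not tested. In all, 52 members were lower than DMSO at 4.5 hpf and yet rose over the hour in TBBPA, and 36 were lower than DMSO with no rise that passed. The comparisons share the TBBPA libraries of 4.5 hpf.

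Before 4.5 hpf the levels of DMSO embryos were set by the rule, so TBBPA and DMSO are given side by side with no test. At 2 hpf the members summed to between 7.05 and 9.11 FPKM in TBBPA, and 24 members were listed at 0 in all 8 libraries. At 3.5 hpf the members summed to between 34.9 and 48.5 FPKM in TBBPA and between 41.5 and 50.3 FPKM in DMSO. Without phlda3 and sesn3 the ranges were 24.4 to 32.6 FPKM and 39.3 to 49.1 FPKM. The median member lay between 0.190 and 0.316 FPKM in the TBBPA libraries and between 0.400 and 0.513 FPKM in the DMSO libraries. The TBBPA mean was below the DMSO mean for 74 of the 92 members and above it for 18. The share over all tested genes is not given here, so how unusual these counts are cannot be said. At 4.5 hpf, 15 members in TBBPA were still below their DMSO mean of 3.5 hpf.

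Across the 92 members, the share of the DMSO level reached at 4.5 hpf had a Pearson r of −0.14 and a Spearman rho of −0.20 with the genomic span of the gene. Spearman rho was −0.004 with gene length, 0.49 with the DMSO level at 3.5 hpf and −0.30 with that of DMSO replicates 1 and 2 at 4.5 hpf. The rule had set limits on both DMSO levels. These are descriptions over members that share the same libraries.

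Gene lists drawn from general knowledge place the members among their pathways at 4.5 hpf, with 14 members on a list. Of 14 tested genes for secreted signals, 11 were lower in TBBPA and 1 higher, with a median log2 difference of −1.44, and fgf3, fgf8a and ndr2 were the members among them. Of 9 tested secreted antagonists 8 were lower and 1 did not pass, with szl the member, and chrd, the gene of Chordin, averaged 55.9 FPKM in DMSO replicates 3 and 4 and 3.15 FPKM in TBBPA. Of 15 tested feedback regulators 9 were lower and 4 higher, at a median of −1.31, with spry1 the member. Of 19 tested receptors 13 were lower and 2 higher, at a median of −0.53, with no member. The medians compare with −0.02 over all tested genes, of which 32.6% were lower and 30.6% higher. A gene could enter the test through its level in DMSO replicates 1 and 2 of 4.5 hpf alone. Genes that come on late in DMSO are therefore favoured in the counts of these and the following lists and are no independent support.

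Of 9 tested adhesion and matrix genes, among them alcamb and flrt3, 7 were lower and 1 higher, at a median of −0.46. These counts became 4 and 2 with TPM scaling and 5 and 1 with total-count scaling. Over all tested genes 32.6% were lower and 30.6% higher. Of 4 tested retinoid genes, among them crabp2b, 2 were lower and 2 did not pass, at a median of −0.91. With TPM or total-count scaling 1 of them was higher. Of 11 tested p53 targets 3 were lower and 6 higher, with a median of 1.35 and phlda3 and sesn3 as members. The p53 target mdm2, a ubiquitin ligase gene, averaged 4.97 FPKM in DMSO replicates 3 and 4 and 14.5 FPKM in TBBPA. The 3 lower genes of this list were pmaip1, ccng1 and baxa, with log2 differences of −0.68, −0.31 and −0.19. The level of this list, summed over its genes, was 257 to 327 FPKM in TBBPA and 197 to 222 FPKM in DMSO replicates 3 and 4.

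Markers of the enveloping layer and the yolk syncytial layer were lower on balance as well. Of 22 tested enveloping layer markers, 17 were lower in TBBPA and 5 did not pass, at a median of −0.92. Over all tested genes 32.6% were lower and 30.6% higher. The list leaves out genes with keratin or claudin symbols but includes the cytokeratin gene cyt1, and its members of the set are capn9, anxa1a and grhl1. With TPM scaling 14 of the 22 were lower and 3 higher, and with total-count scaling 15 and 3. The summed level of the 33 markers on the list was 732 to 755 FPKM in TBBPA against 1219 to 1336 FPKM in DMSO replicates 3 and 4. The abundant markers differed in this. From DMSO replicates 3 and 4 to TBBPA, mean levels went from 175.5 to 19.9 FPKM for sult6b1 and from 131.5 to 8.62 FPKM for stm. They went from 100 to 97.4 FPKM for oclnb and from 87.9 to 92.8 FPKM for spint1b. Of the 33 markers, 2 were at 0 in all 8 libraries of 4.5 hpf. The 17 markers of the yolk syncytial layer, with gata6 as member, summed to 19.4 to 28.7 FPKM against 68.4 to 94.0 FPKM, and 1 was at 0. Of these 17, 11 stayed under 1 FPKM in all 8 libraries of 4.5 hpf and 6 were tested, all lower. Among those tested, slc26a1, afp4, mttp and gata6 were under 1 FPKM in DMSO at 3.5 hpf. The same held for cyt1, evpla, dspa, capn9, anxa1a and grhl1 of the enveloping layer. These genes entered the test only through DMSO at 4.5 hpf, so their lower levels are no independent support. The part of these cell layers in the members' levels was not tested. Of 16 markers of cell types that have not formed at this stage, 14 stayed under 1 FPKM in all 8 libraries of 4.5 hpf.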

How the data were processed

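The deposited values are FPKM, per the file headers, in 2 tables of 31901 genes. Per the submitters' processing notes, the tools were HISAT2 2.0.5 for alignment and featureCounts 1.5.0-p3 for assigning reads to genes. The build is not given in the sources used here, and positions are those of the tables. The FPKM times gene length gave whole multiples of 1 step for 100% of genes within 0.001 of a step, and these were taken as reads. The libraries of 2 hpf are in a table of their own and are set beside the later times with no test.

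Genes whose mean reached 1 FPKM in the DMSO libraries of 3.5 hpf or in DMSO replicates 1 and 2 of 4.5 hpf were tested (12742 genes, all members included because of the rule). limma 3.58.1 in R 4.3.3 was used with a variance trend on log2(FPKM+1). Tests were 2-sided, and p-values were adjusted by Benjamini-Hochberg over all tested genes and called under 0.05. The 4 TBBPA libraries of 4.5 hpf were compared with DMSO replicates 3 and 4, and with the 4 TBBPA libraries of 3.5 hpf. The fits were also run on simulated data in which only genes above a minimum number of reads were changed. That run does not cover members at few reads. Fold values on this scale understate low genes.

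The members and the lists were chosen with earlier results of these data known, and the roles were assigned after values were seen. Named members are the 10 largest falls, the 10 highest log2 differences and the 10 highest DMSO levels at 4.5 hpf, the 5 largest and 5 smallest differences over time, and members on a list, all with ordinary symbols where ranked. Other members were named for their role or place after their values were seen. Of 220 list symbols, 215 were found in the tables, 3 through a table of names, and 2 were not matched. Alternatives were other scalings, filters, pseudocounts, all 4 DMSO libraries, voom on the recovered reads, a replicate block and leaving out each library. Promoter sequences were not analysed here.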

Additional observations from a re-analysis of the deposited data

Results flagged for a closer look

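A check for a single library far from the others was made over 78 groups of 4 libraries, and chance alone trips it in about 1 in 20 groups. The 78 groups do not cover every member at every time and treatment. Groups not listed here can hold such a library. An example that the check did not list is dnase1l4.1 in DMSO at 3.5 hpf. Its level was 0.709 FPKM in replicate 2 and between 0.273 and 0.330 FPKM in the others. The check did list the sterol demethylase gene cyp51. It was at 0.889 FPKM in TBBPA replicate 4 of 3.5 hpf, while the other 3 libraries lay between 0.458 and 0.515 FPKM. At 4.5 hpf it was at 0.899 FPKM in TBBPA replicate 3, with the others between 0.396 and 0.459 FPKM. The summed level of the 92 members was 50.3 FPKM in DMSO replicate 4 of 3.5 hpf, with the others between 41.5 and 42.3 FPKM.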

How the results depend on the processing

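The number of members lower in TBBPA at 4.5 hpf was 84 to 88 with 1 library left out, the number higher was 1 to 2, the median log2 difference −2.09 to −1.86 and the median share of DMSO 11.3% to 13.9%. With all 4 DMSO libraries the median difference at 4.5 hpf was −1.84, and with a replicate block it was −1.85. With a pseudocount of 0.1 the median difference was −2.85 at 4.5 hpf and 1.43 over time in TBBPA. The number that rose in TBBPA was 37 to 59 with 1 library left out (0 to 0 fell, median 0.46 to 0.57). It was 35 with a filter of at least 1 FPKM in 2 libraries of the fit, where only 43 members were tested. TPM scaling moved the median of all tested genes at 4.5 hpf from −0.02 to 0.13, and total-count scaling moved it to 0.11.

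Over all tested genes, deviations from the group mean correlated at −0.08 to 0.17 between libraries with the same replicate number. Libraries with different numbers were not compared, so whether replicate numbers pair the samples was not settled. The members' sums were higher in replicates 3 and 4 than in replicates 1 and 2 in DMSO at 4.5 hpf and in TBBPA at 3.5 and 4.5 hpf. With a replicate block the members higher at 4.5 hpf were 2 in place of 1, since sesn3 passed (0.70). The block also ended the calls of ndr2 at 4.5 hpf (−0.34) and of szl over time (0.42).

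Signs turned for 4 genes whose main value did not pass. For arrdc3a the difference was 0.105 with TPM, 0.0848 with total-count scaling, 0.0982 with voom and 0.142 with the block, and −0.106 to 0.0641 with 1 library left out. For znf1154 it was −0.18 with all 4 DMSO libraries and −0.466 to 0.852 with 1 library left out. With 1 library left out it was −0.194 to 0.801 for sesn3 and, over time, −0.145 to 0.0469 for cyp51, where it was 0.00331 without TBBPA replicate 4 of 4.5 hpf. The causes were not tested. Members at few reads in TBBPA limit how closely their ratios are known.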
